A study of Homo sapiens with 6 samples.

Results

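YAP1 and WWTR1 (which encodes TAZ) are paralogous coactivators that have no DNA-binding domain of their own and act in the nucleus through the TEAD transcription factors. The kinase LATS2, downstream in the Hippo pathway, phosphorylates them and keeps them in the cytoplasm, and AMOTL2, an angiomotin, holds them there as well. Their best known target genes are CCN1 and CCN2, secreted matricellular proteins, ANKRD1, a nuclear ankyrin repeat protein, AXL, a receptor tyrosine kinase, and also AMOTL2 and LATS2, which feed back on the pathway. In epithelial cells this pathway is known for reading cell density, adhesion and stiffness. The transcripts of 10 such genes (YAP1, WWTR1, TEAD1, TEAD4, LATS2, AMOTL2, ANKRD1, AXL, CCN1 and CCN2) are described here, of 58825 genes in the deposited table. They were taken by gene name, and CCN1 and CCN2 by Ensembl identifier.

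The cells were T24, an established human cell line derived from bladder carcinoma, and mRNA libraries were sequenced from 6 samples. The control arm carried the hairpin shNC-1 and is given as WT in its genotype label (3 libraries). The other arm carried the hairpin shDLGAP5-1 against DLGAP5, a spindle protein of mitosis (3 libraries). Each arm thus rests on 1 hairpin in 1 line; the labels used here do not state the time after delivery of the hairpin, the clonal status or the number of cultures. The p-values then measure only the spread among these libraries, which may be technical.

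By the size of the smallest steps among low values, an approximate measure, the depth was about 21600000 to 27500000 fragments in shNC-1 and 13700000 to 18300000 in shDLGAP5-1. DLGAP5 itself was at 32.98, 32.7 and 29.7 FPKM (fragments per kilobase of transcript, scaled to library depth) in shNC-1 and at 5.03, 4.0001 and 7.51 FPKM in shDLGAP5-1, 82.7% lower. The epithelial keratins KRT7, KRT8 and KRT18 were abundant (236.7 to 855 FPKM), as was VIM, a mesenchymal filament gene, while CDH1, GATA3 and UPK2, other markers of urothelium or epithelium, were at most 0.544 FPKM in each library. EPCAM was at 0.765 to 1.18 FPKM, and KRT5 at 3.95 FPKM in shNC-1 replicate 2, at most 0.373 in the other controls and 0 in shDLGAP5-1. KRT19, a further keratin, was lower in shDLGAP5-1 (17.7 to 20.9 against 10.6 to 11.1 FPKM, limma adjusted p = 0.00438). In shDLGAP5-1 replicate 3 the 9 leukocyte markers summed to 740.3 FPKM, most of it LYZ, lysozyme, at 686.0 FPKM; in the other 5 libraries their sum was 10.7 to 35.2 FPKM. Without LYZ the sum was 54.3 FPKM there and 7.90 to 14.2 FPKM in the other 5. PTPRC (7.03 FPKM, at most 0.291 elsewhere), TYROBP (11.2, at most 0.888), FCER1G (8.83, at most 0.352) and ITGB2 (13.8, at most 3.85) were highest in that library, as was PECAM1, an endothelial and leukocyte gene (8.45, at most 0.388). Of the other leukocyte markers, CD68 was also highest in shDLGAP5-1 replicate 3 (13.0 FPKM, at most 9.13 elsewhere). CD14 was not (0.482 FPKM there and 0.536 in shDLGAP5-1 replicate 1). CD3E and MS4A1, of T and B cells, were listed at 0 in all 6 libraries. For the genes named here, leaving out shDLGAP5-1 replicate 3 ended the calls of ANKRD1 and YWHAZ, whose values without it are given with them. The 7 fibroblast markers summed to 6.80 FPKM in shNC-1 replicate 1 and to 1.45 to 3.16 FPKM in the other 5 libraries. DCN (1.52 FPKM, at most 0.0629 elsewhere), COL1A2 (1.66, at most 0.0536) and COL3A1 (0.698, at most 0.196) were highest in shNC-1 replicate 1. COL1A1 and PDGFRB were not.

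Promoters of CCN2, ANKRD1 and YAP1 are shown because these transcripts were lower in shDLGAP5-1 and because TEAD proteins are known to bind the letters GGAATG. Capitals mark each match to GGAATG, or to CATTCC on the other strand. The windows run 5′ to 3′ on the gene's own strand over 300 bases that span the start site, as RefSeq gives them in GRCh38.p14. They lie at chr6:131951323-131951622 (minus strand) for CCN2, chr10:90921038-90921337 (minus strand) for ANKRD1 and chr11:102110197-102110496 (plus strand) for YAP1.
CCN2: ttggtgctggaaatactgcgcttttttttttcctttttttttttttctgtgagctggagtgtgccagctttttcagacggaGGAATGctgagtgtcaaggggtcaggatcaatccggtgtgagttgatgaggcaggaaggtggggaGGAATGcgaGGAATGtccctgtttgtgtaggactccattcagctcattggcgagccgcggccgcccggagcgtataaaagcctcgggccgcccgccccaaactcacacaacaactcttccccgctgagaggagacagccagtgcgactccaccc
ANKRD1: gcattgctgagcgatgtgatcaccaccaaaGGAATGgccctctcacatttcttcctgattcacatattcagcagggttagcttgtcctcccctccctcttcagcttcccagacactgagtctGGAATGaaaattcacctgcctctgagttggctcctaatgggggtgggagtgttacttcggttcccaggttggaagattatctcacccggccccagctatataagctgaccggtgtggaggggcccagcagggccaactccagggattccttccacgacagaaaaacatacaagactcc
YAP1: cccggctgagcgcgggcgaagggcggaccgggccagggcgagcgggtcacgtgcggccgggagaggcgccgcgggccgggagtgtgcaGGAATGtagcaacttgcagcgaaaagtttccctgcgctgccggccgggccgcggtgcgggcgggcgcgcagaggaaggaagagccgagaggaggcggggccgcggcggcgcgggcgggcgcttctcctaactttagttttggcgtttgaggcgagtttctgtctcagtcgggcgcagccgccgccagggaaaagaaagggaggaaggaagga

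The CCN2 promoter held 3 matches, whose first bases lay 169, 104 and 95 bases before the start site. The ANKRD1 promoter held 2, at 220 and 128 bases before the start, and the YAP1 promoter 1, at 162 bases before it. Of 35116 RefSeq promoter windows of 300 bases, 14.0% held at least 1 match, 1.37% at least 2 and 0.128% at least 3. Windows were found for 7 of the 10 genes, and those without one were CCN1, TEAD1 and TEAD4. LATS2 had 1 match, 9 bases after the start site and so not upstream of it. AMOTL2 and AXL had 1 each in 1 of their 2 windows. The AXL match lay in the window at chr19:41226505-41226804, inside the gene. The AXL window at the gene start, 41219223, held none. WWTR1 had none in either of its 2 windows, which says only that these letters are not there. The AP-1 motif TGANTCA, read the same way on both strands, was found in the ANKRD1 window alone among these genes (195 bases before the start), against 7.71% of all windows. It does not overlap the TEAD letters. A match is a description of the sequence and not a measured binding site.

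YAP1, TEAD4, CCN2 and ANKRD1 fell in shDLGAP5-1 cells, and the other 6 genes did not pass the test. All 10 genes were high enough to be tested, and 4 of the 10 were called lower and 0 higher by limma at an adjusted p under 0.05, where 24.8% of the 12714 genes tested were called in either direction, 9.52% lower and 15.3% higher. At an unadjusted p under 0.05, 6 of the 10 were lower and 1, WWTR1, was higher. The values of the groups did not overlap in 7 of the 10, 6 of them lower and 1 higher, against 18.3% lower, 25.6% higher and 43.9% in either direction among all genes tested. The median log2 fold change of the 10 genes was −0.30, and that of all genes tested 0.03. Without shNC-1 replicate 1 or shNC-1 replicate 2, 2 of the 10 were called lower, CCN2 and TEAD4. Without shNC-1 replicate 3, shDLGAP5-1 replicate 2 or shDLGAP5-1 replicate 3 there were 3, these and YAP1. Only the fit without shDLGAP5-1 replicate 1 kept all 4.

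**Figure D1:**
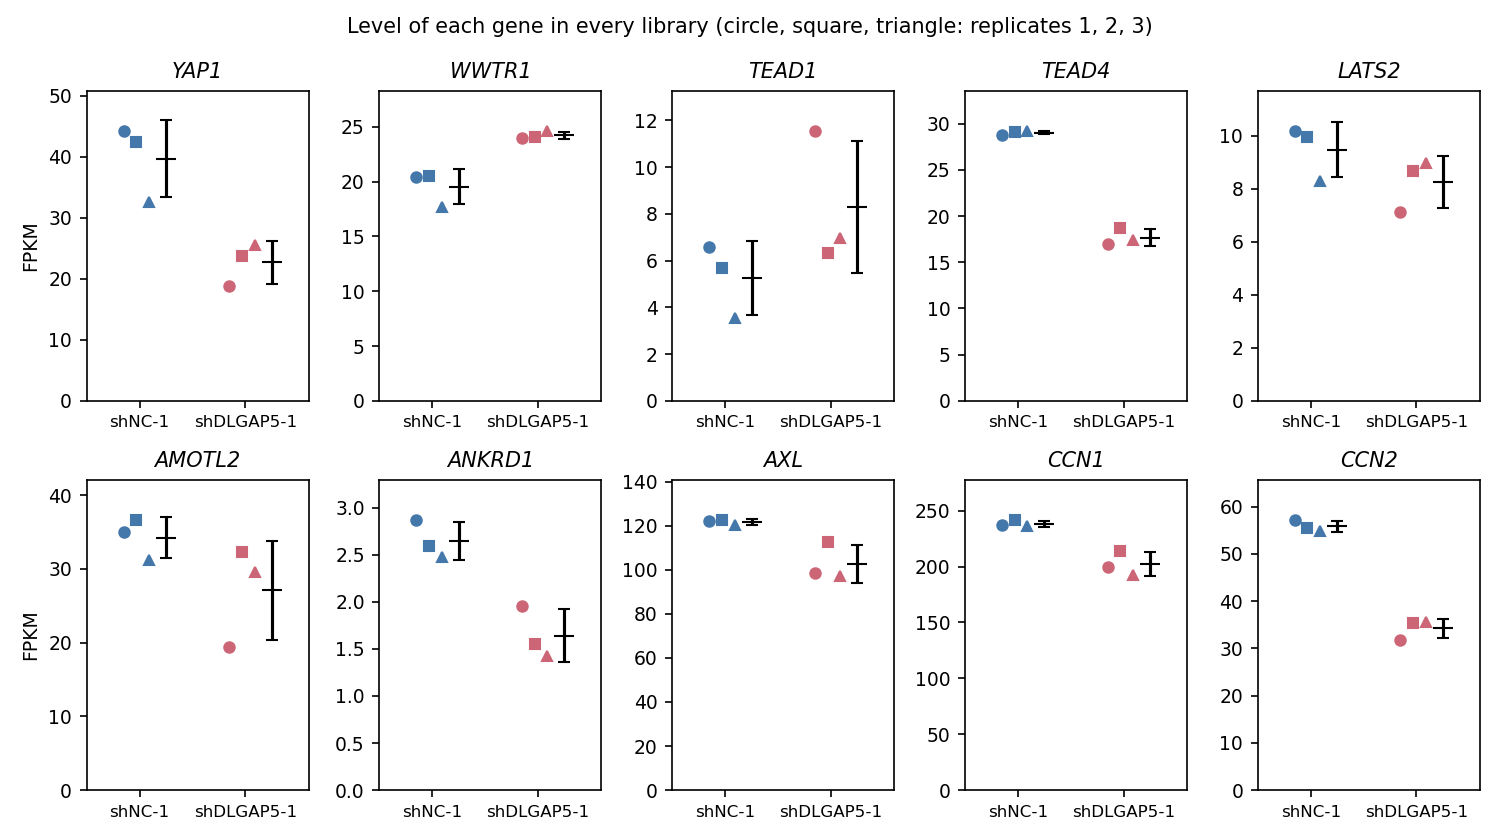
FPKM of each of the 10 genes (vertical axes, each from 0) in the 6 libraries, by hairpin; points are libraries and bars are means ± SD (n = 3). In YAP1, TEAD4, CCN2 and ANKRD1 every shDLGAP5-1 library lies under every shNC-1 library, as it does with smaller gaps in AXL and CCN1, while WWTR1 lies above.

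Among the coactivators, YAP1 stood at 44.2, 42.3 and 32.5 FPKM in the controls and at 18.8, 23.8 and 25.6 FPKM under shDLGAP5-1, each given here and below in the order of the replicate numbers. The third control library was the lowest of its group and still above all shDLGAP5-1 libraries. The mean went from 39.7 ± 6.27 to 22.7 ± 3.50 FPKM (SD, n = 3 each), or 42.8% lower. The log2 fold change, on log2(FPKM + 1) as everywhere here, was −0.78 (standard error 0.16, limma adjusted p = 0.0158). The ratio had a 95% interval of 0.447 to 0.761. This interval and those below come from the same scale, so they are for the ratio of FPKM + 1 and not of mean FPKM. The call was lost without shNC-1 replicate 1 (adjusted p = 0.0613) or shNC-1 replicate 2 (adjusted p = 0.0647), where the log2 fold changes were −0.70 and −0.73. It was also lost when all genes above 0 were tested (adjusted p = 0.0517) and with the replicate number as a block (adjusted p = 0.0549). YAP1 (ENSG00000137693) lies on the plus strand of chromosome 11 from 102110447 to 102233424, in the GRCh38 coordinates of the table, and shares 628 exonic bases with AP000942.2, an antisense gene of at most 0.1745 FPKM.

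WWTR1, the paralog of YAP1, did not fall. Its values were 20.4, 20.5 and 17.7 FPKM in shNC-1 and 23.98, 24.1 and 24.6 FPKM in shDLGAP5-1, so that each shDLGAP5-1 library was above each control. The mean was 19.5 ± 1.59 against 24.2 ± 0.344 FPKM (SD, n = 3 each), a log2 fold change of 0.30 that missed the threshold (limma adjusted p = 0.0720; 95% interval of the ratio 1.04 to 1.46). With the length trend of each library removed it passed (0.31, adjusted p = 0.0417). WWTR1 (ENSG00000018408) spans 149517235 to 149736714 of chromosome 3, minus strand, and shares 795 exonic bases with WWTR1-AS1, an antisense gene of at most 0.629 FPKM.

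The ratio of YAP1 to WWTR1 did not overlap between the hairpins. YAP1 transcripts were 2.17, 2.07 and 1.84 times as abundant as WWTR1 transcripts in shNC-1, per length, and 0.784, 0.988 and 1.04 times as abundant in shDLGAP5-1. The log2 ratio, on log2(FPKM + 1), was lower by 1.08 in shDLGAP5-1, a difference of −1.08 with no overlap between the groups. An exact two-sided permutation test gave p = 0.1, which is the smallest that 3 against 3 libraries allow, and 0.1 when adjusted over the 3 pairs of paralogs compared. Leaving out each library in turn gave differences of −1.15 to −0.96. The 2 transcripts summed to 50.2 to 64.6 FPKM in shNC-1 and to 42.8 to 50.2 FPKM in shDLGAP5-1, and the highest shDLGAP5-1 sum, 50.19, lay just under the lowest control sum, 50.24.

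TEAD4 was the highest of the 4 TEAD transcripts in these cells and fell in shDLGAP5-1. TEAD proteins bind DNA and recruit YAP1 or WWTR1. TEAD4 was at 28.8, 29.1 and 29.2 FPKM in the controls and at 16.96, 18.7 and 17.4 FPKM in shDLGAP5-1. Both groups were tight and far apart. The mean went from 29.02 ± 0.200 to 17.7 ± 0.905 FPKM (SD, n = 3 each), 39.1% lower, with a log2 fold change of −0.69 (limma adjusted p = 0.00378, standard error 0.09). The call held in each of the 6 fits that leave out 1 library. The gene (ENSG00000197905) is on the plus strand of chromosome 12 from 2959330 to 3040676.

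TEAD1 was scattered in both groups. It was at 6.57, 5.66 and 3.53 FPKM in shNC-1 and at 11.5, 6.34 and 6.98 FPKM in shDLGAP5-1, where replicate 1 was the highest of all replicate 2 lay within the control range and replicate 3 just above it. Its log2 fold change was 0.56 (limma adjusted p = 0.163, standard error 0.26), with a 95% interval of the ratio from 0.960 to 2.27, which includes a ratio of 1. TEAD1 (ENSG00000187079) lies on chromosome 11, plus strand, from 12674421 to 12944737. TEAD2, a further member of the family, rose from 5.69 ± 0.671 to 8.53 ± 0.644 FPKM (log2 fold change 0.51, limma adjusted p = 0.0256). That call was lost in 4 of the 6 fits without 1 library (leaving out shNC-1 replicate 1, shNC-1 replicate 2, shDLGAP5-1 replicate 1 or shDLGAP5-1 replicate 2). It was kept in 4 of the 10 other settings. Same-total (limma adjusted p = 0.0566), median-ratio (0.0609) and quantile (0.0610) scaling ended it. So did testing all genes above 0 (0.0531) and the replicate block without (0.0952) or with (0.0842) the length trend removed. TEAD2 shares 319 exonic bases with CD37 on the other strand. TEAD3 was at 7.68 ± 0.247 and 8.02 ± 0.939 FPKM (log2 fold change 0.05, limma adjusted p = 0.784), and its sign turned under same-total and median-ratio scaling.

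TEAD4 took a smaller share of the TEAD transcripts in each shDLGAP5-1 library than in each control. Of the summed FPKM of TEAD1 to TEAD4, it made up 60.0%, 60.1% and 62.6% in shNC-1 and 37.8%, 44.3% and 42.9% in shDLGAP5-1. The share of TEAD2 was 10.5% to 13.7% and 19.5% to 20.7%, and that of TEAD1 7.58% to 13.7% and 15.03% to 25.7%, neither with an overlap between groups. The share of TEAD3 overlapped (15.8% to 16.5% and 15.8% to 21.2%). Shares of a sum are tied to one another, so a lower TEAD4 raises the other shares even where their levels do not change. The log2 ratio of TEAD1 to TEAD4 was higher by 1.25 in shDLGAP5-1 (exact permutation p = 0.1, adjusted 0.1, the smallest possible). The sum of the 4 transcripts went from 47.6 ± 0.911 to 42.5 ± 2.19 FPKM (SD, n = 3 each; exact permutation p = 0.1).

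**Figure D2:**
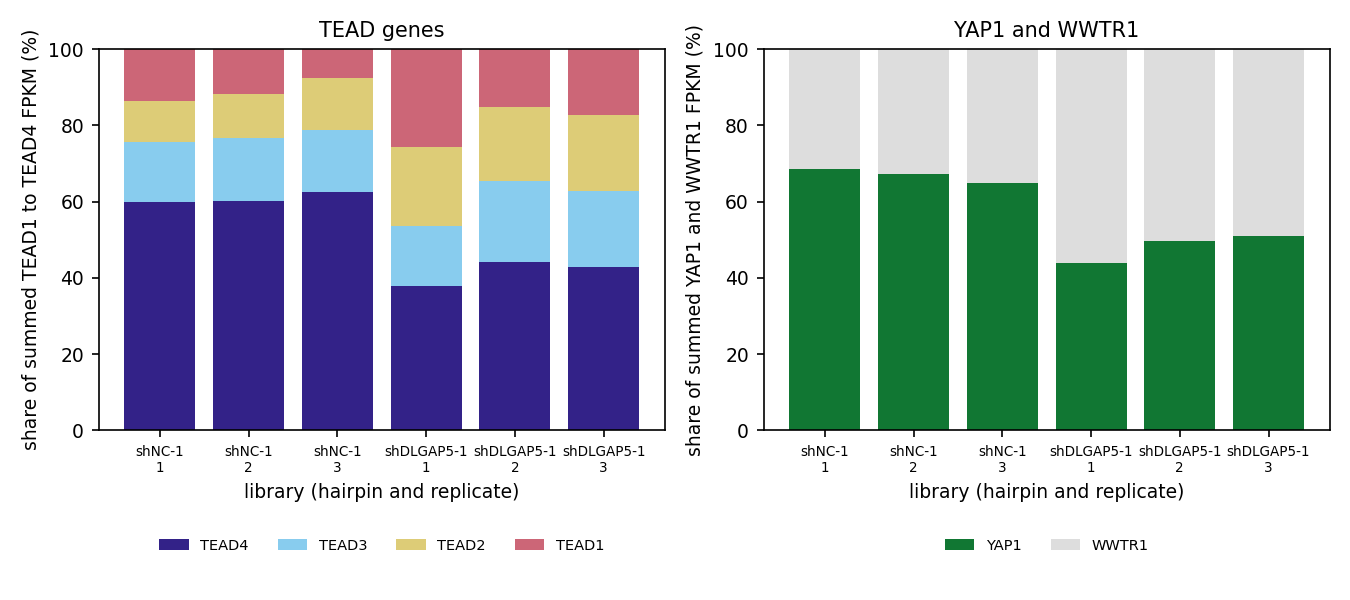
Shares of summed FPKM (vertical axes, percent) taken by the 4 TEAD genes (left) and by YAP1 and WWTR1 (right), 1 bar per library. TEAD4 takes 60.0% to 62.6% of the TEAD sum in shNC-1 and 37.8% to 44.3% in shDLGAP5-1; YAP1 takes 64.8% to 68.4% and 44.0% to 50.9% of its sum with WWTR1.

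The kinase LATS2 and the angiomotin AMOTL2, both inhibitors of YAP1 and both known as its targets, showed no difference beyond the spread between libraries. LATS2 was at 10.2, 9.95 and 8.29 FPKM in the controls and at 7.13, 8.69 and 8.96 FPKM in shDLGAP5-1, so the groups overlapped. Its log2 fold change was −0.18 (limma adjusted p = 0.367), with a 95% interval of the ratio from 0.709 to 1.10. AMOTL2 was at 34.97, 36.6 and 31.2 FPKM in the controls and at 19.4, 32.3 and 29.6 FPKM in shDLGAP5-1, with replicate 1 far below all others and replicate 2 within the control range. Its log2 fold change was −0.36 (limma adjusted p = 0.213), with an interval of the ratio from 0.573 to 1.07, and without shDLGAP5-1 replicate 1 it was −0.14. LATS2 (ENSG00000150457) is on chromosome 13, minus strand, from 20973036 to 21061586, and AMOTL2 (ENSG00000114019) on chromosome 3, minus strand, from 134355874 to 134375479. Of their relatives, LATS1 was at 3.78 ± 0.706 and 3.85 ± 0.548 FPKM and AMOTL1 at 6.45 ± 0.996 and 7.72 ± 1.59 FPKM, and neither passed (limma adjusted p = 0.924 and 0.3997). AMOT was at 2.58, 2.82 and 2.12 FPKM in shNC-1 and at 0.198, 2.82 and 3.22 FPKM in shDLGAP5-1, replicate 1 again being the low library. Its log2 fold change was −0.38 (limma adjusted p = 0.569), and 0.20 without shDLGAP5-1 replicate 1.

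Of the 10 genes, CCN2 was the target with the smallest adjusted p. Control libraries gave 57.1, 55.5 and 54.9 FPKM and shDLGAP5-1 libraries 31.9, 35.3 and 35.6 FPKM, with a gap of 19.3 FPKM between the groups. That is 38.7% lower, with a log2 fold change of −0.69 (limma adjusted p = 0.00383, standard error 0.10) and a 95% interval of the ratio from 0.531 to 0.724. The call held in all 6 fits without 1 library and in the 10 other settings tried. CCN2 (ENSG00000118523), with the 3 TEAD letters printed above in its promoter, spans 131948176 to 131951372 of chromosome 6, minus strand. It shares 195 exonic bases with AL133346.1, an antisense gene of at most 0.997 FPKM.

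CCN1, its relative and the most abundant of the 10 transcripts, was lower by a smaller amount that did not pass. Control libraries held 237.2, 241.4 and 236.6 FPKM and shDLGAP5-1 libraries 200.03, 213.9 and 192.6 FPKM. All shDLGAP5-1 libraries were under all controls, but the spread among them was wider than among controls. The mean was 15.2% lower (log2 fold change −0.24, limma adjusted p = 0.119, standard error 0.10), with a 95% interval of the ratio from 0.723 to 0.994. With the length trend removed it passed (−0.34, adjusted p = 0.0264). CCN1 (ENSG00000142871) is on the plus strand of chromosome 1 from 85580761 to 85583950. The level of CCN1 was 4.15, 4.35 and 4.31 times that of CCN2 in shNC-1 and 6.28, 6.05 and 5.42 times in shDLGAP5-1, a difference of 0.45 in their log2 ratio (exact permutation p = 0.1, adjusted 0.1, the smallest possible). Of the other 4 CCN genes none reached the level needed for a test; CCN4 and CCN6 were listed at 0 in every library.

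ANKRD1 was the lowest of the 10 transcripts. Its control values were 2.87, 2.59 and 2.47 FPKM, and those of shDLGAP5-1 were 1.95, 1.55 and 1.42 FPKM, without overlap. These values correspond to about 119 to 141 fragments in the control libraries and 42 to 53 in the others, by the approximate depths and its longest annotated transcript. The log2 fold change was −0.47 (limma adjusted p = 0.0351, standard error 0.13), a scale that understates the change of so low a gene; the means differ by 37.9%. The call was lost in 5 of the 6 fits without 1 library, all except that without shDLGAP5-1 replicate 1, with adjusted p from 0.0684 (without shDLGAP5-1 replicate 3) to 0.123 (without shNC-1 replicate 1). The ANKRD1 call was also lost when all genes above 0 were tested (limma adjusted p = 0.121). With the replicate number as a block it was lost too (limma adjusted p = 0.0873). ANKRD1 (ENSG00000148677) spans 90912096 to 90921276 of chromosome 10, minus strand. On that strand this span begins upstream of the RefSeq start site used for the promoter above, so the distances of its TEAD letters hold for the RefSeq start only. Its relatives ANKRD2 and ANKRD23 were below the level tested.

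AXL, the receptor, was high in both groups. The control libraries gave 122.2, 122.4 and 120.1 FPKM and shDLGAP5-1 libraries 98.3, 112.7 and 97.3 FPKM, so that each shDLGAP5-1 library was lower. The mean was 15.5% lower (log2 fold change −0.24, limma adjusted p = 0.123, standard error 0.10; 95% interval of the ratio 0.716 to 0.997), and it passed with median-ratio scaling alone (−0.37, adjusted p = 0.0490). The library high in LYZ, shDLGAP5-1 replicate 3, had the lowest AXL value, and without it the log2 fold change was −0.21. Replicate 1 of shDLGAP5-1 was close to it at 98.3 FPKM, and without replicate 1 the log2 fold change was also −0.21. AXL (ENSG00000167601) is on the plus strand of chromosome 19 from 41219223 to 41261766. Its ligand GAS6 rose, from 70.1, 71.4 and 80.1 FPKM in shNC-1 to 165.2, 170.4 and 143 FPKM in shDLGAP5-1, by 1.10 on the log2 scale (limma adjusted p = 0.00137), a call that held in every setting tried. PROS1, protein S, a ligand of the related receptors TYRO3 and MERTK, rose from 2.90 ± 0.684 to 5.34 ± 0.372 FPKM (log2 fold change 0.71, limma adjusted p = 0.0170), a call not kept on leaving out shNC-1 replicate 2, shNC-1 replicate 3 or shDLGAP5-1 replicate 2. Of the 5 genes of this group 2 rose and 0 fell, where 15.3% of all genes tested rose and 9.52% fell, and 1, AXL, was lower at an unadjusted p under 0.05.

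The order of the 10 levels differed in its middle. In shNC-1 it ran CCN1, AXL, CCN2, YAP1, AMOTL2, TEAD4, WWTR1, LATS2, TEAD1 and ANKRD1, and only YAP1 and AMOTL2 overlapped as neighbours. In shDLGAP5-1 it ran CCN1, AXL, CCN2, AMOTL2, WWTR1, YAP1, TEAD4, TEAD1, LATS2 and ANKRD1, so that 6 of the 10 had another rank. There CCN2, AMOTL2, WWTR1 and YAP1 overlapped one with the next, as did TEAD1 and LATS2. Among all genes tested, the mean of YAP1 went from the percentile 86.6 to 76.4 and that of WWTR1 from 72.2 to 77.9.

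**Figure D3:**
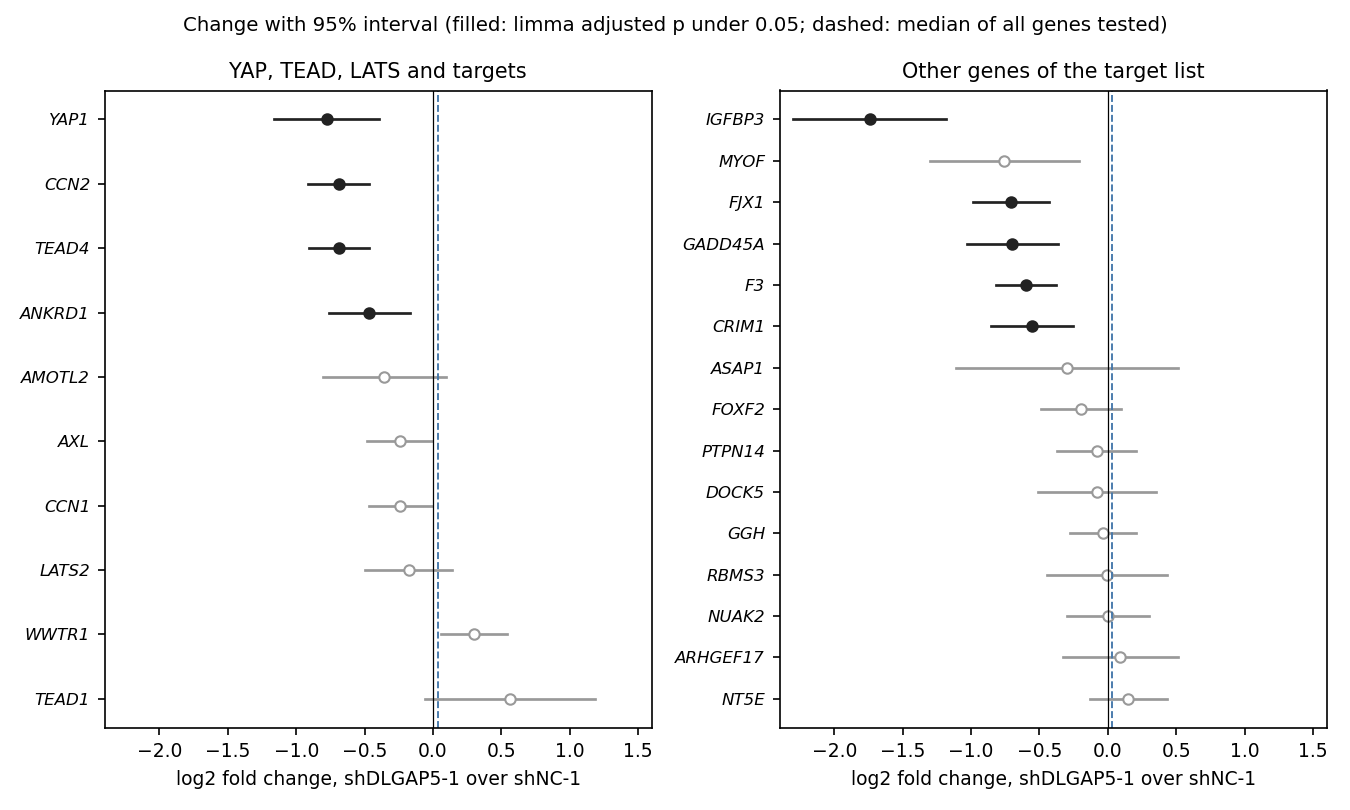
log2 fold change of shDLGAP5-1 over shNC-1 (horizontal axes) with its 95% interval for the 10 genes (left) and the other 15 tested genes of the YAP and TEAD target list (right); filled points have a limma adjusted p under 0.05. The 5 filled points on the right are IGFBP3, FJX1, GADD45A, F3 and CRIM1, all to the left of the dashed median of all genes, 0.03.

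A wider list of 22 YAP and TEAD target genes, known from other cell types, was lower in part. Of 21 tested members, 6 of them among the 10 genes above, 7 fell and 0 rose by limma (10 lower and 0 higher at an unadjusted p under 0.05), at a median log2 fold change of −0.24 against 0.03 for all genes tested. Without the 6 shared genes 5 of 15 fell. Of all genes tested 9.52% fell and 15.3% rose. IGFBP3, which binds insulin-like growth factors, went from 18.9 ± 5.90 to 4.77 ± 0.683 FPKM (mean ± SD, n = 3 each), a log2 fold change of −1.74 (limma adjusted p = 0.00376). F3, tissue factor, which starts blood coagulation, went from 171.8 ± 7.43 to 113.1 ± 1.08 FPKM (log2 fold change −0.60), and FJX1, a secreted Golgi-associated protein, had −0.71. GADD45A, a stress and growth arrest protein, had −0.70 and CRIM1, a membrane protein that binds bone morphogenetic proteins, −0.55, a call not kept on leaving out shNC-1 replicate 1, shNC-1 replicate 2 or shDLGAP5-1 replicate 2. MYOF, myoferlin, missed the threshold at −0.76 (limma adjusted p = 0.0531), and NT5E, GGH, NUAK2, RBMS3 and ARHGEF17 lay between −0.03 and 0.15. Over the 6 fits without 1 library, 5 to 8 members fell and 0 rose, and the median of the list was −0.31 to −0.14. The fit without shDLGAP5-1 replicate 1 had the median of −0.14, and 8 members fell in it.

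VGLL4 and VGLL3, other partners of TEAD, rose. VGLL4, which competes with YAP1 for TEAD, rose from 9.87, 8.57 and 7.91 FPKM in shNC-1 to 14.8, 18.9 and 16.0 FPKM in shDLGAP5-1, by 0.84 on the log2 scale (limma adjusted p = 0.0065), a call that held without each library. Its exons share 1596 bases with ATG7 on the other strand, and since the use of strand is not given in the sources used here, reads of the 2 cannot be told apart. VGLL3, a further cofactor, rose from 0.713 ± 0.264 to 1.74 ± 0.270 FPKM (log2 fold change 0.68, limma adjusted p = 0.0195), on a scale that understates the change of so low a gene. No control library reached 1 FPKM, so VGLL3 was tested only through its level in shDLGAP5-1. The call was not kept on leaving out shNC-1 replicate 2, shNC-1 replicate 3 or shDLGAP5-1 replicate 2. It was also lost when all genes above 0 were tested (limma adjusted p = 0.0861) and with the replicate block (0.0627). Of 8 tested genes of the TEAD, VGLL, YAP1 and WWTR1 group 3 rose (TEAD2, VGLL3 and VGLL4) and 2 fell (YAP1 and TEAD4), where 15.3% of all genes tested rose and 9.52% fell. The median of the group was 0.41, and VGLL1 and VGLL2 were listed at 0 in every library. Without shNC-1 replicate 2, 1 rose and 1 fell; without shNC-1 replicate 1, 1 fell, and without shDLGAP5-1 replicate 2, 1 rose.

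Upstream, of 22 tested genes of Hippo kinases and scaffolds 1 rose and 2 fell, where 15.3% of all genes tested rose and 9.52% fell; the median log2 change of the list was −0.07, and of all genes 0.03. FRMD6, a FERM domain protein of the upstream part of the pathway, went from 31.3, 28.5 and 26.6 FPKM in shNC-1 to 8.83, 12.7 and 14.9 FPKM in shDLGAP5-1, by −1.21 on the log2 scale (limma adjusted p = 0.00547). WWC1, the scaffold KIBRA, which activates LATS kinases, went from 24.01 ± 4.29 to 14.3 ± 0.606 FPKM (log2 fold change −0.69, limma adjusted p = 0.0136). Both calls held without each library. SAV1, the scaffold that joins the kinases MST and LATS, rose from 17.9 ± 0.442 to 24.6 ± 0.905 FPKM (log2 fold change 0.44, limma adjusted p = 0.0164), a call lost without any 1 of the 3 control libraries, and shares 840 exonic bases with ATL1 on the other strand. The kinase genes STK3 and STK4 and the scaffold NF2 had log2 fold changes of −0.11, −0.30 and −0.09 and did not pass.

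Counts for genes of polarity, dephosphorylation and turnover are read beside the same shares of all genes tested, 9.52% lower and 15.3% higher. Of 22 tested polarity and junction genes 2 fell, a share near that of all genes, and 0 rose by limma (3 lower and 0 higher at an unadjusted p under 0.05): MPP5, the polarity scaffold PALS1, at −0.49, and TJP1, the tight junction scaffold ZO-1, at −0.48. Neither call held on leaving out shNC-1 replicate 1, shNC-1 replicate 2 or shDLGAP5-1 replicate 2, and TJP1 also without shDLGAP5-1 replicate 1. Without shNC-1 replicate 1, shNC-1 replicate 2 or shDLGAP5-1 replicate 2, 0 of the 22 fell. Of 18 genes of STRIPAK, the phosphatase complex that acts on MST kinases, and related phosphatases 1 fell and 0 rose (4 lower and 0 higher at an unadjusted p under 0.05). It was PTPN11, the phosphatase SHP2, at −0.91, which shares 111 exonic bases with the abundant RPL6 and was lost without shNC-1 replicate 1 or 2. Of 17 genes of YAP and TAZ binding and turnover 4 fell and 1 rose, and of all genes tested 24.8% were called in either direction. The medians of the 3 lists were −0.09, −0.14 and −0.19. The falls were YWHAZ, YWHAE and YWHAH, phosphoserine-binding adaptors that hold YAP1 in the cytoplasm, at −0.59, −0.38 and −0.46, and CUL1, a ubiquitin ligase scaffold, at −0.37. The falls numbered 0 without shNC-1 replicate 1 or 2 and 1 without shNC-1 replicate 3 or shDLGAP5-1 replicate 2. YWHAE and CUL1 also lost their calls without shDLGAP5-1 replicate 1 (limma adjusted p = 0.0629 and 0.0667). Of the 6 fits without 1 library, YWHAZ, YWHAE and CUL1 each kept the call in 1 and YWHAH in 4. YWHAZ also lost its call without shDLGAP5-1 replicate 3 (limma adjusted p = 0.0722), the library high in LYZ. OTUD1, a deubiquitinase, rose by 0.76, from 1.59 ± 0.133 to 3.39 ± 0.417 FPKM, which held without each library.

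**Figure D4:**
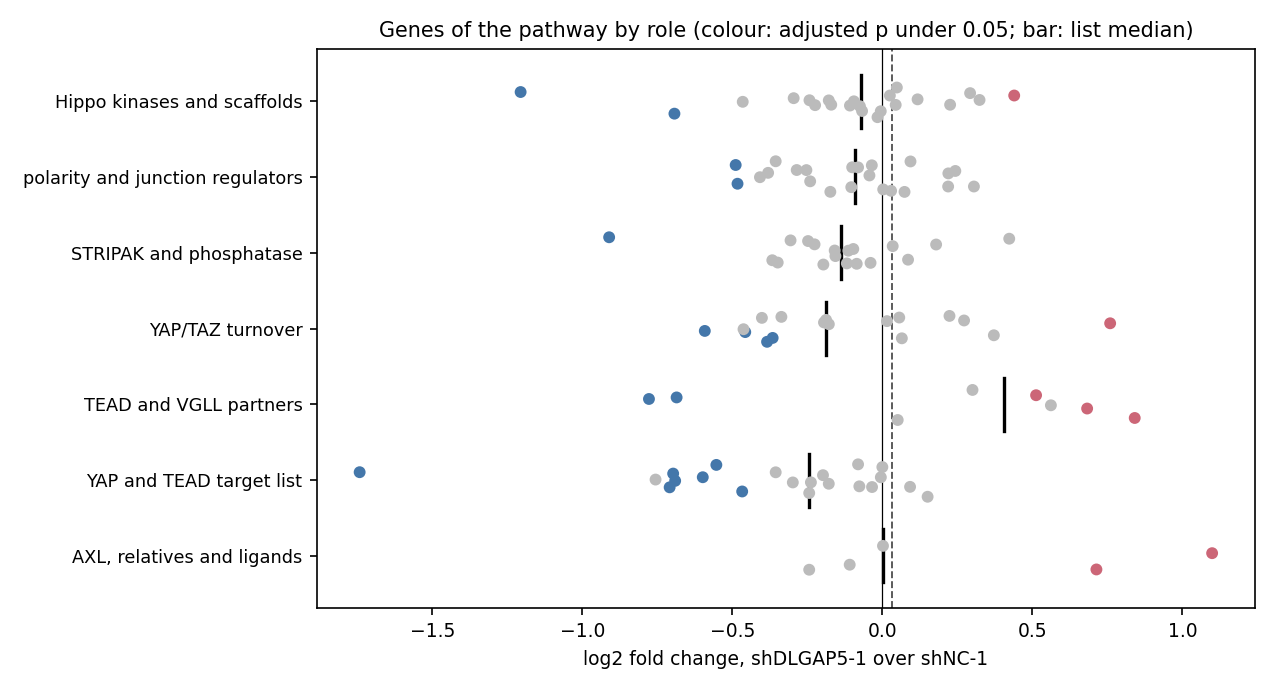
log2 fold change of shDLGAP5-1 over shNC-1 (horizontal axis) of the tested genes of 7 groups of the pathway; coloured points have a limma adjusted p under 0.05 (blue lower, red higher) and vertical bars are group medians. The target list has 7 coloured points, all lower, and the TEAD and VGLL group 3 higher and 2 lower.

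Transcripts with the most similar pattern over the 6 libraries were sought for YAP1, ANKRD1 and CCN2, as the smallest root mean square distance between centred log2 values among 8627 genes with a mean of at least 5 FPKM. For CCN2 they were NRIP3 (distance 0.017), MAPRE1 (0.025) and ITSN1 (0.036). For YAP1 they were SLC38A1 (0.048), FASN (0.055) and CDCP1 (0.062). For ANKRD1 they were HSD17B12 (0.056), STK17A (0.060) and METTL6 (0.063). These matches depend on log2(FPKM + 1), which understates the change of a gene as low as ANKRD1. Its mean went from 2.64 to 1.64 FPKM. The means of the 3 matches went from 53.6 to 40.2, 21.8 to 16.2 and 11.9 to 8.40 FPKM, smaller relative changes. The distances describe 6 libraries in 2 groups, and all 9 transcripts were lower in shDLGAP5-1, as were the 3 genes they were compared with.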

How the data were processed

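mRNA of T24 cells was sequenced in 3 shNC-1 and 3 shDLGAP5-1 libraries. The authors deposited 1 table of 58825 genes whose header names no unit. Its values are FPKM as the deposited numbers show: they are not whole, their column totals (413001 to 487559) differ, and in low single-exon genes they pile up at a step inverse to length, from which depth was estimated. Which aligner, quantifier and annotation made them, and whether strand was used, is not given in the sources used here. GENCODE 29 holds 99.5% of the gene IDs, with GRCh38 coordinates that match exactly for 87.1% of them. Columns with the letters NC were matched to shNC-1, and those with a construct number to shDLGAP5-1.

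The 12714 genes that reached 1 FPKM in 3 or more libraries entered limma 3.58.1, run in R 4.3.3 (trended variance, log2(FPKM + 1), group as the only term, Benjamini-Hochberg adjusted p under 0.05 over all genes tested) after tests on simulated data. Exact permutation tests were two-sided. The genes, lists and tests were chosen with earlier results of these data known. Named were the 10 genes, their paralogs, up to 5 called genes per list and the 3 nearest patterns of YAP1, ANKRD1 and CCN2; other genes were named after their values were seen. The alternatives comprised another pseudocount (0.1), testing all genes above 0, a minimum of 5 FPKM, 3 scalings, removal of a length trend (lowess span 0.3), a replicate block, a robust variance prior and leaving out each library.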

Additional observations from a re-analysis of the deposited data

How the results depend on the processing

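Over 159 refits of the 10 genes, 145 kept their direction and side of the threshold, 11 lost a call (YAP1 and ANKRD1), 3 gained one (WWTR1, CCN1 and AXL) and 0 changed sign. The number called lower, 4 as reported, was 2 with no filter and 2 with the replicate block, and 2 to 4 without 1 library; the number called higher, 0 as reported, was 1 with the length trend removed. All genes called numbered 3155 as reported, 2071 with no filter, 1464 with the replicate block and 1335 to 3141 without 1 library. The deviations of libraries with the same replicate number correlated at −0.16, 0.02 and −0.16, and the libraries did not all correlate best with their own number. With 3 libraries per group these correlations cannot settle whether the libraries were paired. The block also takes away degrees of freedom. Under it YAP1 (limma adjusted p = 0.0549) and ANKRD1 (limma adjusted p = 0.0873) lost their calls, and the target list had 4 falls.

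Same-total and median-ratio scaling moved the median of the target list to −0.35 and −0.37, and the median of all genes by −0.09 and −0.10. Relative to that median YAP1 was −0.81 as reported and −0.83 under both, and CCN2 −0.72 and −0.74. Of all calls 61.6% were higher as reported, 48.1% with same-total and 42.3% with median-ratio scaling, 50.8% with quantile normalization, 50.0% with the length trend removed and 52.0% with a filter of 5 FPKM. With median-ratio scaling 4 genes of STRIPAK and 7 of turnover fell. Values near 0 changed sign. LATS1 went from 0.025 to −0.062, −0.072 and −0.13 under same-total, median-ratio and quantile scaling, and TEAD3 from 0.051 to −0.047 and −0.058 under same-total and median-ratio scaling. Without 1 library LATS1 was −0.089 to 0.13 and TEAD3 −0.022 to 0.13. AMOT, at −0.38 with all libraries and so not near 0, ran from −0.71 to 0.20. It was above 0 only without shDLGAP5-1 replicate 1. The median of AXL, its relatives and ligands went from 0.00206 to −0.18 with quantile normalization. The cause was not tested. A filter of 5 FPKM leaves ANKRD1 untested. ANKRD1 rests on about 42 to 53 fragments in each shDLGAP5-1 library.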
